A study of Mus musculus with 4 samples.

Results

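The glycolysis and hypoxia response genes were compared between 2 kinds of blood stem cell sorted from mouse bone marrow, long-term (LT-HSC) and short-term (ST-HSC). The set was chosen by function: 38 genes for glucose and lactate carriers, the enzymes of glycolysis, the kinases that gate pyruvate entry into mitochondria, the oxygen sensing machinery and genes known to respond to low oxygen. This choice was made with earlier results of these data known. Each gene was read from its brightest probe set among those annotated to that gene alone, and 34 of the 38 had 1 or more such probe sets (78 in all). Of these, 32 were bright enough to be tested, among 12832 genes tested on the arrays. The carrier gene Slc16a3 and the hydroxylase gene P4ha2 lay under the brightness filter. Gpi1 and Eno1 had no named probe set, those of Bnip3l were shared with a pseudogene, and Gapdh was read only by array control probe sets and by probe sets shared with pseudogenes.

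Glycolysis splits glucose into pyruvate in the cytosol and yields ATP without oxygen. Lactate dehydrogenase turns pyruvate into lactate, which monocarboxylate transporters carry across the membrane, and pyruvate dehydrogenase kinases hold pyruvate back from the mitochondria. When oxygen is plentiful, prolyl hydroxylases (Egln genes) mark the factor HIF-1α for destruction through the VHL ubiquitin ligase. When oxygen falls, HIF-1α pairs with ARNT and switches on many glycolytic genes. Blood stem cells reside in marrow regions of low oxygen, and LT-HSC are known for quiescence and for reliance on glycolysis.

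RNA was measured on 4 arrays, 2 for each group. All cells came from control mice of a C57BL/6 background without the Mx-Cre transgene. Poly(I:C), a synthetic RNA that mimics a virus and induces interferon, had been injected 7 times into every mouse. Both gates took lineage-negative cells with cKit and Sca1 on their surface and without CD135. CD34 split them, with CD34- cells taken as LT-HSC and CD34+ cells as ST-HSC. A tissue entry that names LT-HSC for both ST-HSC samples was set aside in favour of title and gate. Mice were 7.5 weeks old, 4 weeks past the last injection, for 3 of the arrays, and 8.5 weeks old, 3 weeks past it, for ST-HSC replicate 3. Separate animals are not stated for the LT-HSC pair, so the p-values measure the spread between these arrays, which may be technical.

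The arrays themselves set several limits. Median intensities ran from 19.1 to 28.3. ST-HSC replicate 3 stood apart: 4 spiked control transcripts that read at most 380 on the other arrays reached 2990 to 9033 there, and the 5′ control probe set of Gapdh stood at 15.2% of the 3′ one, against 6.35% to 7.22% elsewhere. Cd34, the gene of the gated marker, read 27.4-fold above the LT-HSC level in ST-HSC (log2 difference -4.78, SE 0.31, adjusted p = 0.000473). Kit was 2.03-fold higher in ST-HSC (adjusted p = 0.0498), and Flt3, the gene of CD135, did not pass (-1.37, adjusted p = 0.0631). The Kit call was lost under several settings, among them median centring (-0.88, adjusted p = 0.129) and its probe sets averaged (-0.49, adjusted p = 0.209). Of 5 tested stem cell genes, 0 passed in either direction, where 14.3% of all genes did. Their median log2 difference was -0.43. The LT-HSC arrays carried markers of other cells: 5 of 5 plasma cell genes and 4 of 6 tested B-cell genes were higher there, with summed intensities of 33997 and 33765 for the plasma cell list against 1538 and 2677 in ST-HSC. Neutrophil granule genes summed to 47716 on ST-HSC replicate 3, against 3420 on ST-HSC replicate 2 and 3796 and 492 on LT-HSC replicates 1 and 2. Of 5 tested platelet genes, 2 were higher in ST-HSC (6.41% of all genes). Of 3 tested T and NK genes, 2 were higher in LT-HSC (7.92% of all genes) and 1 in ST-HSC. Of 4 tested macrophage genes 1 was higher in LT-HSC, and of 3 tested erythroid genes 0 passed. In ST-HSC, 3 of 4 myeloid progenitor genes and 5 of 5 tested genes of cycling cells were higher, where 6.41% of all genes were. On bulk RNA, fewer cells of a type and less RNA per cell cannot be told apart. The part of these cells in the differences below was not tested, except where a value is given.

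Most of the glycolytic genes that passed the test read higher in ST-HSC, and the exception was a phosphofructokinase. Of the 32 tested genes, 6 were higher in ST-HSC (Hk1, Hk3, Pkm, Ldha, Slc16a1 and Ndrg1), Pfkp alone was higher on the LT-HSC side, and 25 did not pass. Among all 12832 genes, 14.3% passed in either direction, 6.41% higher in ST-HSC and 7.92% higher in LT-HSC. The median log2 difference, LT-HSC minus ST-HSC, was -0.36 over the set and -0.08 over all genes tested, and 65.6% of the set against 54.1% of all genes lay below 0. Both ST-HSC arrays read above both LT-HSC arrays for 15 of the 32, where 35.7% of all genes did so. In the other direction this held for 5, against 28.6% of all genes.

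**Figure D1:**
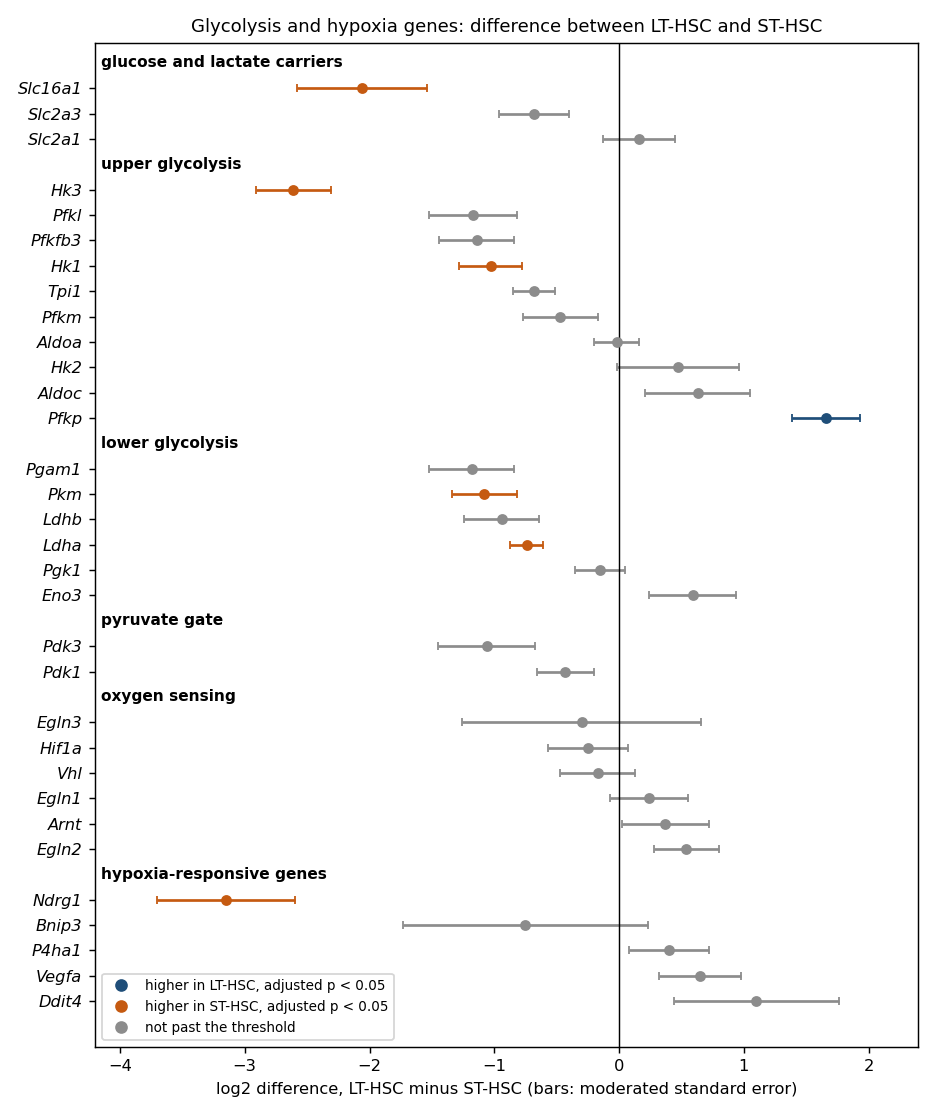
Log2 difference between LT-HSC and ST-HSC (LT-HSC minus ST-HSC, horizontal axis) for the 32 tested genes, grouped by role, with the moderated standard error as bars. Pfkp is the gene past the threshold on the LT-HSC side at 1.66, and Ndrg1, Hk3, Slc16a1, Pkm, Hk1 and Ldha lie on the ST-HSC side between -3.15 and -0.74.

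The 7 calls were lost with either LT-HSC array left out. The spread was then estimated from the ST-HSC pair alone, and without an ST-HSC array from the LT-HSC pair alone. Over the set, the median gap between a group's 2 arrays was 0.39 for ST-HSC and 0.20 for LT-HSC. The Hk3 difference was -2.67 without LT-HSC replicate 1 and -2.47 without replicate 2, against -2.61 with all arrays. That of Slc16a1 moved more, to -1.44 and -2.68 against -2.06. The part of the wider ST-HSC gap in the lost calls was not tested. Without LT-HSC replicate 1, 0 genes of the set passed in limma in either direction (7 had an unadjusted p under 0.05, 6 of them higher in ST-HSC). Without LT-HSC replicate 2, 0 passed as well (8 with an unadjusted p under 0.05, 6 of them higher in ST-HSC). Among all genes 1.88% and 1.87% then passed. Without ST-HSC replicate 2, by contrast, 14 of 33 were higher in ST-HSC and 6 in LT-HSC, where 19.3% and 17.9% of all genes were. Without ST-HSC replicate 3, which leaves arrays of equal age and interval, 12 of 33 were higher in ST-HSC and 1 in LT-HSC, where 27.6% of all genes passed in either direction and 14.6% were higher in ST-HSC. The direction of each of the 7 genes was the same with any 1 array left out. Other settings moved the count on the ST-HSC side: 4 of 32 with the arrays centred on their medians (7.59% of all genes), 4 with no normalization (6.87%), 2 without the intensity trend of the spread model (4.97%) and 3 of 34 with no brightness filter (3.19%). It was 8 of 32 with a stricter filter at the 60th percentile (8.58% of all genes) and 8 of 32 with each gene's probe sets averaged (9.94%). At an adjusted p under 0.1 it was 11 (12.5% of all genes), and at an adjusted p under 0.01 Hk3 alone (0.857%), with 0 on the LT-HSC side (2.91%).

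**Figure D2:**
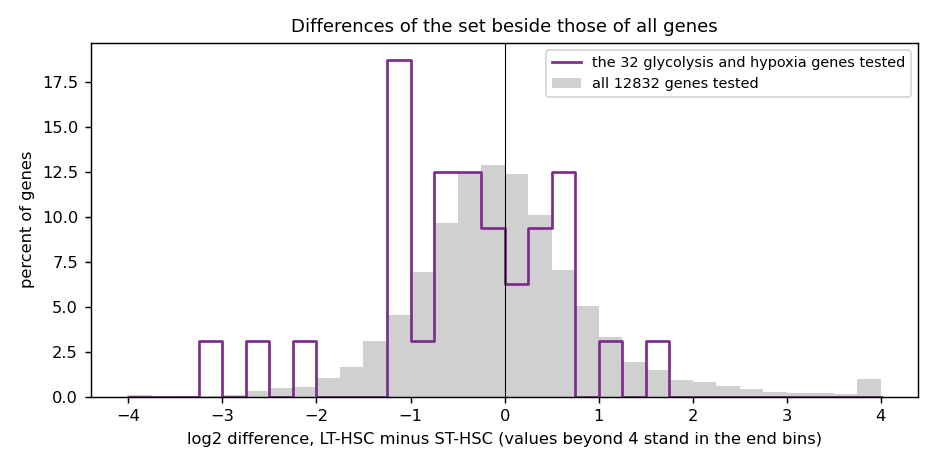
Share of genes (vertical axis, percent) in each bin of log2 difference, LT-HSC minus ST-HSC (horizontal axis, bins of 0.25), for all 12832 genes tested (grey bars) and for the 32 glycolysis and hypoxia genes (line). The median of the set lies at -0.36 and that of all genes at -0.08, and both distributions spread over each side of 0.

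HIF-1 binds a short core, ACGTG or GCGTG, in the control regions of its targets. The windows searched ran from 250 bases before to 50 bases after each annotated start (RefSeq, GRCm38.p6), on both strands. For the set, 35 of the 38 genes had such windows, and a gene counted if any of its windows held a core. By window, 41 of 50 in the set held a core (82%), against 43.8% of all windows. One or other core was found for 32 of the 35 genes (91.4%), for 65.5% of the 10363 genes tested on the arrays that had a window, and for 46.7% of all 27025 genes with one. These cores contain CpG, and the set's windows were rich in G and C: the median G+C of the richest window per gene was 65.0% for the set, 61.3% for the tested genes and 53.3% for all genes. CACGTG, an E-box also bound by MYC and USF factors, holds ACGTG on both strands. It was present for 7 of the 35 genes, for 11.4% of the tested genes and for 8.09% of all genes. Of the set's genes past the threshold with a window, 6 of 6 held 1 or more ACGTG or GCGTG cores. So did 22 of 24 of those tested that did not pass. CACGTG was held by 2 of these 6 and by 5 of these 24.

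The promoters of the 6 genes past the threshold that had a window are shown because they hold such cores in different number and place. Each line gives the 250 bases before the annotated start, 5′ to 3′ on the gene's strand, with every ACGTG or GCGTG on either strand in capitals. Where a gene had more than 1 start (Hk1, Pkm and Ldha, 2 each), the one with the most matches is shown. The other window of Hk1 and that of Pkm held 0 cores, and that of Ldha held 2.
Pfkp (chr13:6648772-6649021, minus strand): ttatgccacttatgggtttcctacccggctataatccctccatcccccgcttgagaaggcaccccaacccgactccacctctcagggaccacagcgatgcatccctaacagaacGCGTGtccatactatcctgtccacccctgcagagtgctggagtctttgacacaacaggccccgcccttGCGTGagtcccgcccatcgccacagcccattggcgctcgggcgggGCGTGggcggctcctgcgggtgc
Hk3 (chr13:55021386-55021635, minus strand): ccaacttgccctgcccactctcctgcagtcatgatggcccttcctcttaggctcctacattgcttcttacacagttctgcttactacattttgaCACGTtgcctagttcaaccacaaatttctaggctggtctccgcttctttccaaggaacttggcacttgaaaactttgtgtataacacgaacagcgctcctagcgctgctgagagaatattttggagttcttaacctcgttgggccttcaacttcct
Hk1 (chr10:62340422-62340671, minus strand): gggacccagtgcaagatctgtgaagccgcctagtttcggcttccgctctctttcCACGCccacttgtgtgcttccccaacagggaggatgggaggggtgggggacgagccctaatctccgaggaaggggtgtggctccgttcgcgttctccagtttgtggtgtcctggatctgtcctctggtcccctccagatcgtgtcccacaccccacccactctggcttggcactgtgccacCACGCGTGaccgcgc
Pkm (chr9:59656977-59657226, plus strand): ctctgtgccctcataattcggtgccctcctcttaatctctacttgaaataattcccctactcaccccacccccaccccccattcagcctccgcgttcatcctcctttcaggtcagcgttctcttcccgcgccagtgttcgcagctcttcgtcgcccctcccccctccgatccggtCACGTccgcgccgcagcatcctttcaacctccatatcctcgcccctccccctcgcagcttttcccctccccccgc
Ldha (chr7:46845554-46845803, plus strand): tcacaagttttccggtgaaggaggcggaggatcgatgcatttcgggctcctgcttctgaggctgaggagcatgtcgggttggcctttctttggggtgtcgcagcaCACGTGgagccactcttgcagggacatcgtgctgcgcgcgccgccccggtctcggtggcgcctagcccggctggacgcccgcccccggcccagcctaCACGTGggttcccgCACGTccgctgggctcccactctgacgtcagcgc
Slc16a1 (chr3:104638414-104638663, plus strand): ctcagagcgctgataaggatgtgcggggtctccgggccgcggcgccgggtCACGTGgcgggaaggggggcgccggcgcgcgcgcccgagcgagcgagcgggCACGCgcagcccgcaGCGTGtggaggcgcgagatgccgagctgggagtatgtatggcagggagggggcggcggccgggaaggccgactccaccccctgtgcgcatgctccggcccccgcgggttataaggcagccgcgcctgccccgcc
Counted from the start, with the base before it as -1, the cores of Pfkp began at -136, -68 and -23, each GCGTG on the gene's own strand. The Ldha promoter held CACGTG beginning at -145 and at -48, with a further core at -34, and that of Slc16a1 held CACGTG at -200. In the bases shown, Hk3 and Pkm had a single core each, at -156 and -75, and Hk1 had cores at -196, -15 and -12. A match is a run of letters and not a measured binding site.

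Among the carriers, Slc16a1 was higher in ST-HSC, and the glucose transporters did not pass. Slc16a1 encodes MCT1, a carrier of lactate and pyruvate. It read 31.6 and 113 on the LT-HSC arrays and 241 and 493 on the ST-HSC arrays (intensity as deposited, replicates in the order 1 and 2, then 2 and 3). The groups did not overlap, but the pairs were wide, with normalized log2 levels of 6.38 ± 0.82 (SD, n = 2) in LT-HSC and 8.45 ± 0.76 (SD, n = 2) in ST-HSC. The log2 difference of -2.06 (SE 0.52) was 4.18-fold and only just passed (adjusted p = 0.0475). It did not pass with a pseudocount of 4 (adjusted p = 0.0502) or 64 (adjusted p = 0.0512). Nor did it without the intensity trend (adjusted p = 0.0566) or with no brightness filter (adjusted p = 0.0571). Slc2a3, the glucose transporter GLUT3, read 715 and 461 against 875 and 881, and its difference of -0.68 (SE 0.28) did not pass (adjusted p = 0.157). Another probe set of Slc2a3 gave -0.60. Slc2a1, which encodes GLUT1, the main glucose carrier of blood cells, read 247 and 235 against 252 and 203. Its groups overlapped, and its 3 probe sets lay between -0.12 and 0.30. Slc16a3, the gene of the lactate exporter MCT4, stayed between 0.0590 and 19.8 on all arrays.

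Of the hexokinases, which trap glucose as its phosphate, Hk1 and Hk3 were higher in ST-HSC and Hk2 did not pass. Hk3, a hexokinase found mostly in myeloid cells, showed the widest gap of the enzymes tested in the set. It read 98.2 and 95.2 on the LT-HSC arrays and 596 and 791 on the ST-HSC pair. With log2 levels of 6.88 ± 0.21 (SD, n = 2) and 9.49 ± 0.22 (SD, n = 2), the difference was -2.61 (SE 0.30), or 6.10-fold (limma, adjusted p = 0.00411). Its other probe set gave -2.36 (SE 0.32, adjusted p = 0.00748). Hk3 was thus far apart on the arrays whichever probe set was read. Beside it, the myeloid progenitor markers summed to 1175 and 735 on the LT-HSC arrays and to 5807 and 16949 on the ST-HSC pair. These markers were high on both ST-HSC arrays, and their part in the Hk3 difference was not tested. Without ST-HSC replicate 3 the Hk3 difference was -2.44.

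Hk1, the hexokinase of most tissues, read 364 and 414 on the LT-HSC arrays and 757 and 825 on the ST-HSC pair. The ST-HSC arrays lay close together and clear of the LT-HSC pair, with a log2 difference of -1.03 (SE 0.25, adjusted p = 0.0421). A dimmer Hk1 probe set lay at -0.86 and did not pass (adjusted p = 0.157). Its LT-HSC mean lay under the brightness limit, so it was tested only through ST-HSC and is not counted as support. Median centring gave -0.89 for Hk1 (adjusted p = 0.11). The Hk1 call was also lost without the intensity trend (adjusted p = 0.0628) and with no brightness filter (adjusted p = 0.0551). Hk2, the insulin- and hypoxia-responsive form, read 958 and 770 against 947 and 335. Only ST-HSC replicate 3 was low, and the difference of 0.47 (SE 0.49) did not pass (adjusted p = 0.554). It became -0.32 without that array and 1.30 without ST-HSC replicate 2.

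Phosphofructokinase commits sugar to glycolysis and is built from liver (Pfkl), muscle (Pfkm) and platelet (Pfkp) type subunits. Pfkp was the gene of the set that passed on the LT-HSC side. It read 722 and 634 on the LT-HSC arrays and 225 and 189 on the ST-HSC pair, so every LT-HSC value lay far above every ST-HSC value. The log2 levels were 9.41 ± 0.10 (SD, n = 2) and 7.75 ± 0.08 (SD, n = 2), a difference of 1.66 (SE 0.27) or 3.17-fold (limma, adjusted p = 0.013). Another probe set gave 1.67 (SE 0.31, adjusted p = 0.0195), with 129 and 125 against 37.0 and 29.1. Pfkp was higher on the same arrays as the plasma cell and B-cell markers, and the part of those cells in its difference was not tested.

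Pfkl read 145 and 132 on the LT-HSC arrays and 444 and 266 on the ST-HSC pair. Although the groups did not overlap, the difference of -1.17 (SE 0.35) did not pass (adjusted p = 0.0751). Without ST-HSC replicate 3 the Pfkl difference was -1.52. One of its 3 probe sets lay on the other side, at 0.28. Pfkm read 152 and 155 against 269 and 205 (-0.47, SE 0.30, adjusted p = 0.331). Pfkfb3 makes fructose-2,6-bisphosphate, the strongest activator of phosphofructokinase. It read 23.7 and 36.3 on the LT-HSC arrays against 95.9 and 91.9 on the ST-HSC pair (-1.14, SE 0.30, adjusted p = 0.0527), while its dimmer probe set lay at -0.01.

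**Figure D3:**
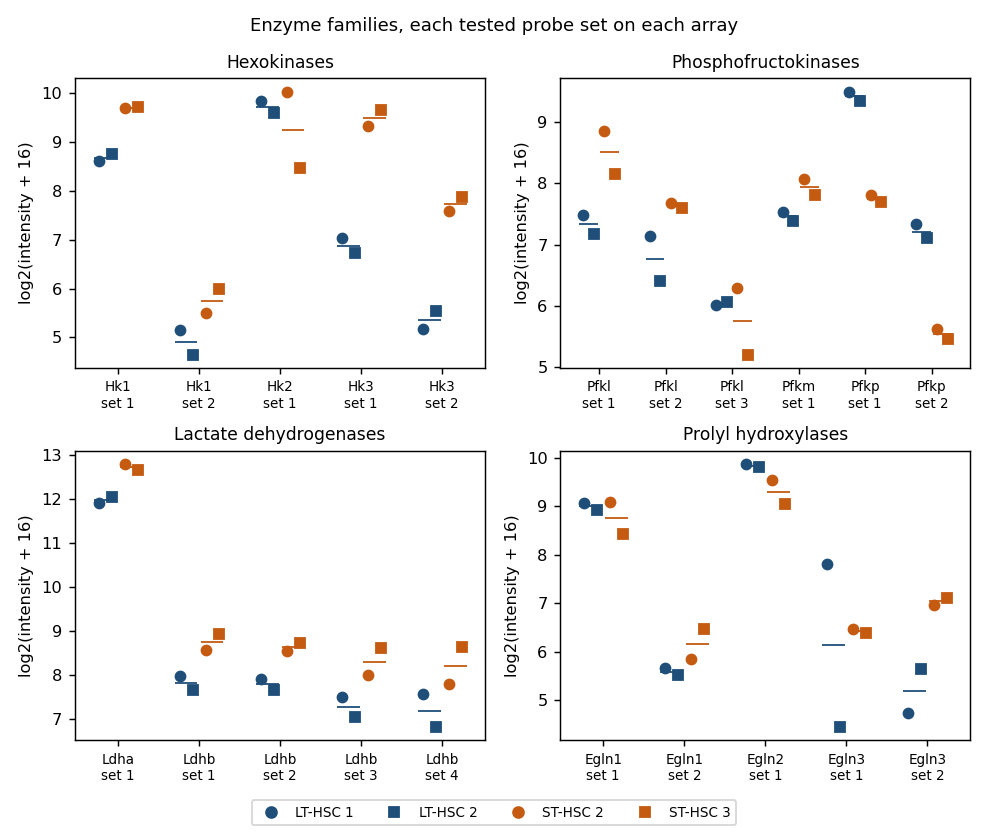
Normalized log2(intensity + 16) on each array for every tested probe set of 4 enzyme families (vertical axis), numbered from the brightest within a gene, with LT-HSC in blue, ST-HSC in orange and lines at the group means. Levels can be compared within a probe set and not between probe sets. The 2 tested Pfkp probe sets lie higher in LT-HSC, both Hk3 probe sets and all 4 Ldhb probe sets lie higher in ST-HSC, and the 2 Egln3 probe sets disagree on the LT-HSC arrays.

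In the steps after phosphofructokinase, aldolase did not pass and triose phosphate isomerase lay at the threshold. The 5 probe sets of Aldoa, the main aldolase, disagreed in sign and lay between -0.58 and 0.60, and none passed. The brightest read 2369 and 2008 against 1692 and 2001, with a difference of -0.02 (SE 0.18) that changed sign with the scaling (0.35 with centring on the medians, 0.24 with no normalization). Aldoc, the brain-type aldolase, read 283 and 248 against 275 and 107 (0.63, SE 0.42, adjusted p = 0.359). Tpi1, which interconverts the triose phosphates, read 1820 and 1818 on the LT-HSC arrays and 2288 and 2549 on the ST-HSC pair. Its difference of -0.68 (SE 0.17) missed the threshold (adjusted p = 0.0506), while another of its 3 probe sets passed at -1.17 (SE 0.26, adjusted p = 0.0343). The size for Tpi1 depended on the scaling, at -0.30 with median centring (adjusted p = 0.586) and -0.41 with no normalization (adjusted p = 0.213). The remaining probe set of Tpi1 lay at -1.10.

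The enzymes of the later steps, from glyceraldehyde phosphate to lactate, included 6 that were tested. Of these, 2 were higher in ST-HSC (6.41% of all genes), 0 in the LT-HSC arrays, and 4 did not pass, with a median of -0.84. Ldha, which reduces pyruvate to lactate, read 4390 and 4651 on the LT-HSC arrays and 7041 and 5575 on the ST-HSC pair. The gap was small and the pairs were tight: log2 levels of 11.97 ± 0.08 (SD, n = 2) and 12.71 ± 0.10 (SD, n = 2) differed by -0.74 (SE 0.13), or 1.67-fold (limma, adjusted p = 0.018). The size depended on the scaling, at -0.37 with median centring (adjusted p = 0.468) and -0.47 (adjusted p = 0.115) with no normalization. The Ldha call was also lost without the intensity trend of the spread model (SE 0.27, adjusted p = 0.131). Ldhb, the form that favours lactate oxidation, read 223 and 188 against 378 and 476. Its 4 probe sets lay between -1.03 and -0.86, every one with both ST-HSC arrays on top, and none passed (brightest -0.94, SE 0.30, adjusted p = 0.0903).

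Pkm, pyruvate kinase of the muscle and proliferating-cell forms, read 973 and 689 on the LT-HSC arrays and 1312 and 1858 on the ST-HSC pair. With log2 levels of 9.66 ± 0.29 (SD, n = 2) and 10.74 ± 0.30 (SD, n = 2), the difference was -1.08 (SE 0.26), or 2.12-fold (limma, adjusted p = 0.0424). The single Pkm probe set does not separate the splice forms. The call was lost with centring on the medians (-0.81, adjusted p = 0.186) and with no normalization (-0.92, adjusted p = 0.0643). It was also lost without the intensity trend (adjusted p = 0.0795) and with no brightness filter (adjusted p = 0.0544). Pgam1, phosphoglycerate mutase, read 515 and 495 on the LT-HSC arrays against 772 and 1524 on the ST-HSC pair. The 2 ST-HSC arrays lay well apart, and the difference of -1.18 (SE 0.34) did not pass (adjusted p = 0.0678). Pgk1, phosphoglycerate kinase, read 4026 and 3505 against 4025 and 2829 (-0.15, SE 0.20, adjusted p = 0.632), and its other probe sets lay at -0.26 and -0.63. Eno3, the muscle enolase, read 141 and 245 against 166 and 103 (0.59, SE 0.35, adjusted p = 0.301). The 3′ control probe set of Gapdh, which was not tested, read 3731 and 3229 on the LT-HSC arrays and 4034 and 5057 on the ST-HSC pair.

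**Figure D4:**
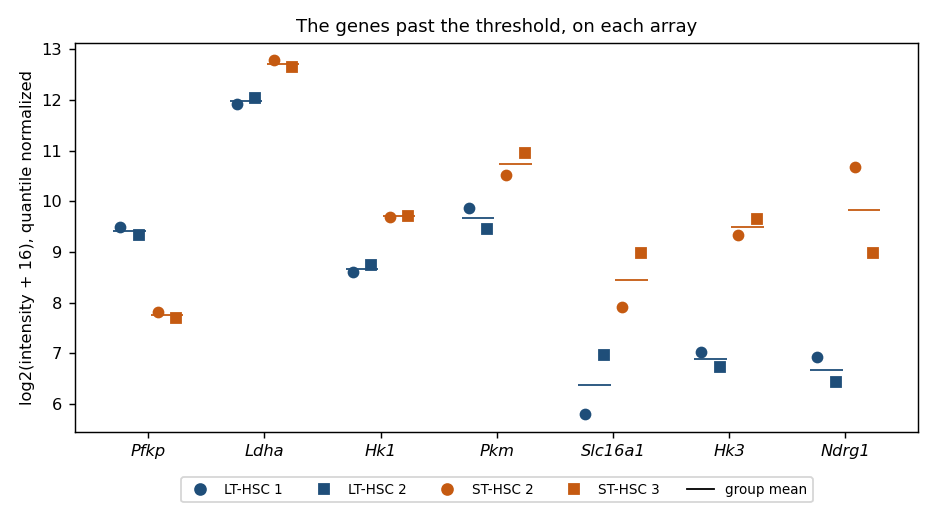
Normalized log2(intensity + 16) of the 7 genes past the threshold on each of the 4 arrays (vertical axis), with LT-HSC in blue, ST-HSC in orange, a marker for each replicate and lines at the group means. For Pfkp both LT-HSC arrays lie above both ST-HSC arrays, and for the other 6 genes the ST-HSC arrays lie on top, with wide pairs for Slc16a1 and for Ndrg1 in ST-HSC.

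Beside these enzymes stood the markers of cycling cells, 5 of 5 tested higher in ST-HSC (6.41% of all genes). These markers had summed intensities of 2991 and 3463 on the LT-HSC arrays and 10931 and 13019 on the ST-HSC pair. Their part in the enzyme differences was not tested.

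At the pyruvate gate, neither kinase passed (limma, 0 of 2, with 1 at an unadjusted p under 0.05), where 14.3% of all genes passed. Pdk1, a HIF-1 target that inhibits pyruvate dehydrogenase, read 627 and 656 on the LT-HSC arrays against 802 and 850 on the ST-HSC pair (-0.43, SE 0.23, adjusted p = 0.257). Its other 3 probe sets lay between -0.42 and 0.21. Pdk3, another HIF-1 target, read 85.2 and 120 against 190 and 336 (-1.06, SE 0.39, adjusted p = 0.12). On the brightest probe set of each gene the ST-HSC arrays lay above the LT-HSC arrays, as they did for 35.7% of all genes. On the Pdk1 probe sets at 0.21 and 0.10 the groups overlapped.

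The oxygen sensing genes showed no call on their brightest probe sets (limma, 0 of 6 passed and 0 had an unadjusted p under 0.05), with a median of 0.03. Among all genes 14.3% passed in either direction. Hif1a, the regulated subunit of HIF-1, read 297 and 356 on the LT-HSC arrays and 329 and 501 on the ST-HSC pair. The groups overlapped, and the difference of -0.25 (SE 0.32) did not pass (adjusted p = 0.635). Its other tested probe sets lay at -0.46 and 0.02. Arnt, its partner, read 115 and 148 against 154 and 74.6 (0.37, SE 0.35, adjusted p = 0.519), and Vhl, the substrate receptor of the ligase, 50.6 and 74.9 against 80.5 and 79.8 (-0.17, SE 0.30, adjusted p = 0.747). HIF-1α is controlled mainly as a protein, which the arrays do not measure.

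Of the prolyl hydroxylases, Egln2 (PHD1) read 976 and 905 on the LT-HSC arrays above 691 and 521 on the ST-HSC pair (0.54, SE 0.26, adjusted p = 0.215). Egln1 (PHD2), the main oxygen sensor, read 537 and 471 against 511 and 327 (0.24, SE 0.31, adjusted p = 0.65), and its dimmer probe set lay at -0.58. Egln3 (PHD3), itself induced by HIF, was not settled. Its brighter probe set read 195 and 6.62 on the LT-HSC arrays and 83.1 and 66.0 on the ST-HSC arrays (-0.30, SE 0.96, adjusted p = 0.862). The other read 7.01 and 38.3 against 123 and 120 and was called higher in ST-HSC (-1.85, SE 0.39, adjusted p = 0.029). On LT-HSC replicate 1 the brighter probe set was high and the other low, and on replicate 2 the order was turned.

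Of 5 tested genes known to respond to low oxygen, Ndrg1 was higher in ST-HSC and 4 did not pass, with a median of 0.40. Among all genes 6.41% were higher in ST-HSC. Ndrg1, a stress- and hypoxia-induced gene also linked to differentiation, showed the widest difference of the set. It read 89.8 and 76.2 on the LT-HSC arrays and 1456 and 493 on the ST-HSC pair, so its ST-HSC arrays were both high but far apart. The log2 levels of 6.68 ± 0.34 (SD, n = 2) and 9.83 ± 1.19 (SD, n = 2) differed by -3.15 (SE 0.55), or 8.85-fold (limma, adjusted p = 0.0167). A probe set with both group means above the brightness limit gave -2.42 (adjusted p = 0.0202), and another such probe set, at 0.20, did not pass (adjusted p = 0.8). The remaining 2 were bright enough to be tested only through ST-HSC and are not counted as support. With its 5 probe sets averaged, the Ndrg1 difference was -1.93 (limma, adjusted p = 0.0197). That average includes those 2, so it is not counted as support either. Ndrg1 was highest on ST-HSC replicate 2. With ST-HSC replicate 3 left out it was still higher in ST-HSC (adjusted p = 1.38e-07).

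Ddit4 (REDD1), which restrains mTORC1 under stress, read 724 and 962 on the LT-HSC arrays and 757 and 161 on the ST-HSC pair. Its difference of 1.10 (SE 0.66, adjusted p = 0.302) followed the low value on ST-HSC replicate 3: it was 2.29 (adjusted p = 5.17e-06) without ST-HSC replicate 2 and -0.0038 (adjusted p = 0.992) without ST-HSC replicate 3. Vegfa, the vascular growth factor, read 52.2 and 96.7 on the LT-HSC arrays above 42.3 and 48.2 on the ST-HSC pair (0.65, SE 0.33, adjusted p = 0.231). Its other probe set lay at 1.08 (adjusted p = 0.12), but with an ST-HSC mean under the brightness limit, so it was tested only through LT-HSC. P4ha1, a collagen prolyl hydroxylase, read 185 and 254 against 217 and 139 (0.40, SE 0.32, adjusted p = 0.448). P4ha2 read 21.5 or less on all arrays. Bnip3, a mitophagy receptor and HIF-1 target, read 21.0 and 454 on the LT-HSC arrays and 262 and 201 on the ST-HSC arrays. The LT-HSC replicates of Bnip3 thus bracketed the ST-HSC pair, and the difference of -0.75 (SE 0.98, adjusted p = 0.644) became 0.94 with LT-HSC replicate 1 left out and -2.50 with replicate 2 left out.

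**Figure D5:**
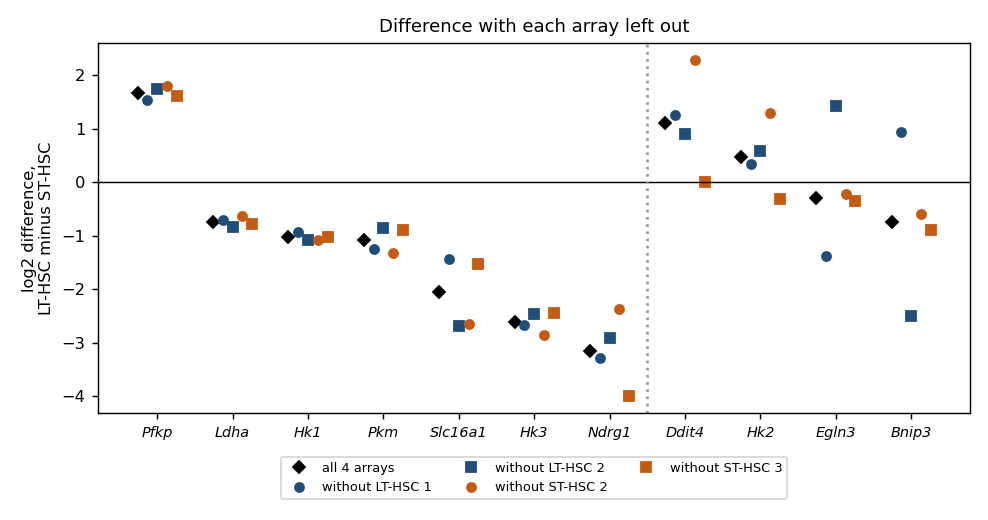
Log2 difference, LT-HSC minus ST-HSC (vertical axis), with all 4 arrays (black diamonds) and with each array left out in turn (blue and orange markers), for the 7 genes past the threshold (left of the dotted line) and 4 others (right). The 7 genes stay on 1 side of 0 throughout, while Ddit4, Hk2, Egln3 and Bnip3 cross or reach 0 when a single array is removed.

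Other genes of these pathways moved in both directions. Of 14 further tested glycolytic genes, 10 did not pass, 2 were higher in ST-HSC and 2 in LT-HSC, where 6.41% and 7.92% of all genes were. Fbp1, the gluconeogenic fructose bisphosphatase, read 35.7 and 57.2 on the LT-HSC arrays against 269 and 236 on the ST-HSC pair (-2.02, SE 0.30, adjusted p = 0.00998). Slc16a7, a monocarboxylate carrier, was also higher in ST-HSC (-1.32, adjusted p = 0.0428), but its LT-HSC mean lay under the brightness limit, so it was tested only through the group where it is high. Tigar, which lowers fructose-2,6-bisphosphate, was higher in LT-HSC (1.28, SE 0.32, adjusted p = 0.0476). With its probe sets averaged, Tigar differed by 0.20 (adjusted p = 0.658), and its call was also lost with no normalization (adjusted p = 0.103), a pseudocount of 4 (adjusted p = 0.0504) and no filter (adjusted p = 0.0769). Pgam2, the muscle phosphoglycerate mutase, read 397 and 621 on the LT-HSC arrays and 7.39 and 9.17 on the ST-HSC pair, which is under the pseudocount and under the brightness limit, so the fitted difference of 4.47 (adjusted p = 0.000818) depends on that choice.

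Of 6 tested genes of the pentose phosphate branch, which makes NADPH and ribose, 2 were higher in ST-HSC and 1 in LT-HSC, beside the same shares of all genes. The transketolase gene Tkt read 1689 and 1407 on the LT-HSC arrays and 7468 and 3286 on the ST-HSC pair (-1.87, SE 0.30, adjusted p = 0.0134), and Pgd, which yields NADPH, was also higher in ST-HSC (-0.90, adjusted p = 0.0408). The Pgd call was lost with median centring (-0.56, adjusted p = 0.317), with no normalization (-0.66, adjusted p = 0.0989), with no filter (adjusted p = 0.0569) and without the intensity trend (adjusted p = 0.0981). Rpia, ribose phosphate isomerase, was higher in LT-HSC (0.93, adjusted p = 0.0246), at 3562 and 3913 against 1666 and 1480, and was not called without the intensity trend (adjusted p = 0.0861). Of 8 tested genes of pyruvate entry, 0 passed in limma, where 14.3% of all genes did. An unadjusted p under 0.05 was seen for 3 of them, and their median was -0.60.

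Among 13 further oxygen sensing genes, 2 were higher in LT-HSC and 0 in ST-HSC, a share near the 14.3% of all genes called in either direction. Epas1, which encodes HIF-2α, read 181 and 129 on the LT-HSC arrays and 42.3 and 47.5 on the ST-HSC pair (1.56, SE 0.34, adjusted p = 0.0337). Os9, a lectin of endoplasmic reticulum quality control, read 730 and 725 against 253 and 247 (1.49, adjusted p = 0.0166). Of 20 further hypoxia-responsive genes, 2 were higher in ST-HSC, 2 in LT-HSC and 16 did not pass, against the same 14.3% in either direction. Car9, the carbonic anhydrase that serves as a marker of hypoxia, read 29.5 and 28.3 against 180 and 150 (-1.89, SE 0.31, adjusted p = 0.0146). Angptl4, a lipase inhibitor, was higher in ST-HSC as well (-1.93, adjusted p = 0.0116). Rora, a nuclear receptor, and Adm, the vasoactive peptide adrenomedullin, were higher in LT-HSC (1.73, adjusted p = 0.023, and 1.21, adjusted p = 0.0489). Rora lay at 0.88 with its probe sets averaged (adjusted p = 0.0484), and the ST-HSC mean of Adm lay under the brightness limit. Adm was not called with no normalization (adjusted p = 0.0947), a pseudocount of 64 (adjusted p = 0.0546) or no filter (adjusted p = 0.0823). Of these 13 calls, all but that of Pgam2 were lost without LT-HSC replicate 1 and without replicate 2. The Pgam2 difference was 4.69 without replicate 1 and 4.20 without replicate 2. The calls of Tigar, Slc16a7 and Adm were also lost without ST-HSC replicate 3 (differences 1.06, -1.18 and 1.13).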

How the data were processed

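The authors deposited 1 table of intensity values on a linear scale, 45101 probe sets on 4 arrays. Per the labels' protocols, RNA of sorted cells was amplified in 2 rounds and biotin-labelled. Which software summarised the probes, and whether it scaled them, is not given in the sources used here. Genes of the set and all lists were chosen with earlier results of these data known. After 64 control probe sets were left out, log2(intensity + 16) was quantile normalized (array medians spanned 0.33 before), and probe sets with a mean above the 40th percentile were kept (27022). This pseudocount understates the fold of dim genes. No tested gene of the set had a group mean under the filter's limit (0 of 32). The groups were tested by limma 3.58.1 under R 4.3.3 (eBayes with an intensity trend, 2 residual and 4.84 prior degrees of freedom), with Benjamini-Hochberg adjustment over all tested probe sets and a threshold of 0.05. Symbols came from the supplied platform annotation (34958 probe sets with 1 symbol, 932 with several, 9211 unnamed); those of the set all stood in the RefSeq table (GRCm38.p6). Every gene of the set is named, and from each further list up to 4 past the threshold. An exact permutation test of 2 arrays against 2 cannot go below 0.333, so none was run. The number of arrays limits the precision. The procedure was tested on simulated data. Alternatives changed the normalization, pseudocount, filter, spread model, threshold and choice of probe set, and left out each array in turn. Part of the mice's genotype is not reported here.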

Additional observations from a re-analysis of the deposited data

How the results depend on the processing

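No paired analysis was possible because the groups share only replicate number 2 in the titles. Pfkp kept its direction under every alternative and was lost at an adjusted p under 0.01 and without either LT-HSC array, where its difference was 1.54 and 1.74 against 1.66. Genes of the set higher in LT-HSC numbered 0 at an adjusted p under 0.01 (1 had an unadjusted p under 0.05 in limma) and 0 to 6 with an array left out. Genes higher in ST-HSC numbered 6 with all arrays, 3 with no filter on dim probe sets, 2 without the intensity trend, 11 at an adjusted p under 0.1, 1 at an adjusted p under 0.01, and 0 to 14 with an array left out. With an array left out of a pair, the lone array is assumed to vary like the other group. The median over the set lay between -0.47 and -0.27 in all alternatives. Of the genes that did not pass, signs turned for Aldoa (0.35 with centring on the medians, 0.24 with no normalization) and Pgk1 (0.26 and 0.15), for Egln3 with a pseudocount of 64 (0.04), and for Vhl (0.01) and Egln1 (-0.17) with probe sets averaged. With an array left out, the ranges were -0.32 to 1.30 for Hk2, -0.11 to 0.06 for Aldoa, -0.40 to 0.08 for Pgk1, -0.60 to 0.07 for Hif1a, -0.09 to 0.60 for Egln1, -1.38 to 1.42 for Egln3, -2.50 to 0.94 for Bnip3 and -0.0038 to 2.29 for Ddit4. The causes were not tested.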
